A study of Rattus norvegicus with 42 samples.

Results

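Hindlimb unloading takes the body weight off the hind legs of a rat that hangs by its tail, and it is used as a model of muscle disuse. The comparison described here is that of the extensor digitorum longus (EDL), a fast muscle of the lower leg, between 3 rats after 7 days of unloading without recovery (D7, animals U1, U2 and U3) and 3 control rats that were not unloaded (C, animals U6, U7 and U8). The 6 libraries were chosen by the muscle and the protocol in the sample labels, and they are 6 of the 42 libraries of the series, which took soleus and EDL from 21 mature Wistar rats at 7 phases. The other phases were 1 and 3 days of unloading (D1 and D3) and recovery for 1, 3 and 7 days that followed 7 days of unloading (labelled R1, R3, R7). The features are 9969 of the 9971 tag clusters of the series, called TSS peaks here, after the 2 peaks of the mitochondrial genome were left out. Every peak of the table reached at least 10 CPM (tag counts scaled to library size) in at least 1 library, so weaker starts are missing from it. The RNA came from whole muscle, in which fewer cells of a type and less RNA per cell cannot be told apart.

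CAGE, short for cap analysis of gene expression, sequences the 5′ ends of capped transcripts, and a group of neighbouring ends marks a transcription start site (TSS) of a promoter or of another transcribed element. Skeletal muscle is built of slow and fast fibres that use different copies of the contractile genes. EDL consists mostly of fast fibres, and soleus, a postural muscle, mostly of slow ones. Disuse is known to shift slow muscle towards a fast fibre type and to alter the activity of many promoters in both kinds of muscle. The deposited table gives the position and the strand of a peak on Rnor_6.0 but no gene, and no annotation of that build was used here, so peaks are given by position. The exception is Myh4, which encodes the myosin heavy chain of the fastest (IIb) fibres and whose stretch of the genome was taken, with approximate ends, from where the study draws that gene.

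The 3 control libraries held 4488404 to 12195006 tags and the 3 D7 libraries 4137652 to 14549791 tags. The share of tags inside the TSS peaks was 94.0%, 73.1% and 84.7% in controls U6, U7 and U8, compared with 86.5%, 82.8% and 91.3% in D7 animals U1, U2 and U3. All controls were sequenced in lane 1, D7 animals U1 and U2 in lane 3 and U3 in lane 6, so that within EDL the lane and the unloading cannot be told apart. As a check of the muscle, the summed level of the 35 plus strand peaks in the Myh4 stretch was 2979 to 3505 CPM in control EDL and 6.06 to 35.7 CPM in soleus of the same 3 rats.

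After 7 days of unloading, 102 of 9343 tested TSS peaks (1.09%) passed the quasi-likelihood test of edgeR. A call needed an adjusted p below 0.05 together with a change of more than 2.38-fold in either direction. Of these, 56 were higher at D7 (0.599% of the tested peaks) and 46 were lower (0.492%). The rises were larger, with a median log2 fold change of 2.86 and a range from 1.32 to 6.35, compared with a median of −1.67 and a range from −1.28 to −3.40 among the falls. Over all tested peaks the median was 0.03. The rises started from a low level, with a median over peaks of 3.50 CPM in the controls and 22.0 CPM at D7. The falls started from a higher one, 29.6 CPM in the controls, and went to 9.05 CPM at D7. At all 102 called peaks the levels of the D7 animals and of the controls did not overlap. Without regard to calls this held for 1953 of the tested peaks (20.9%), 11.7% higher and 9.2% lower. The calls rest on the same libraries and a fold cutoff, which left little room for overlap among the called peaks.

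**Figure D1:**
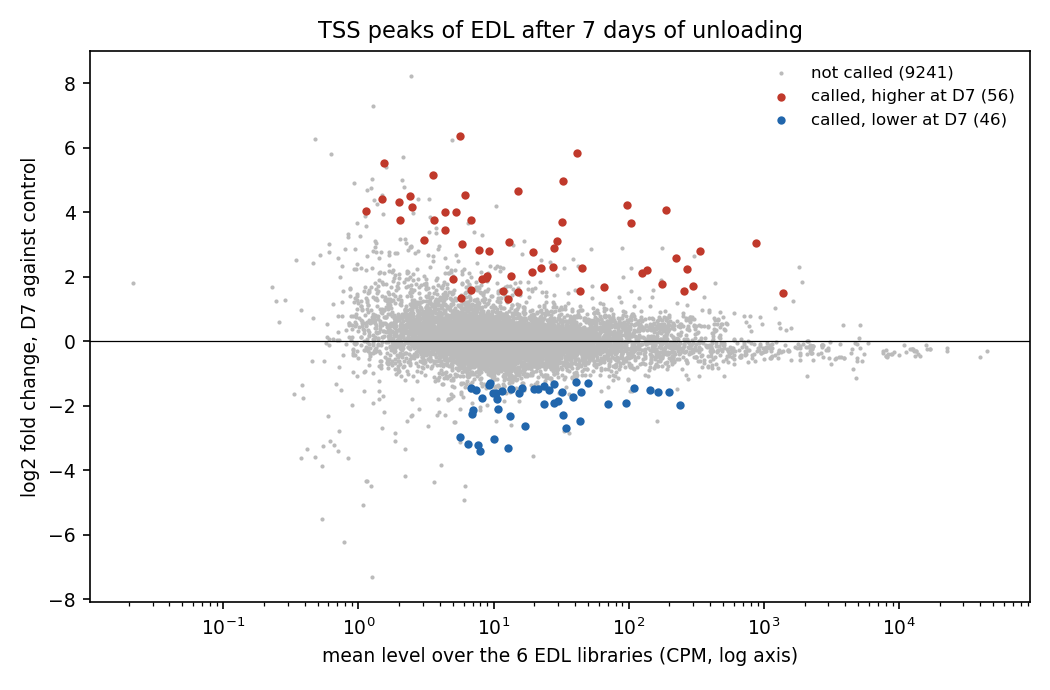
Each point is a TSS peak of EDL, with its mean level over the 6 libraries in CPM on a log axis and its log2 fold change between D7 and control. The 56 called rises reach a log2 fold change of 6.35 and the 46 called falls reach −3.40, while most of the other peaks lie near 0.

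The number of called peaks moved with the libraries and the settings. It was 9 without control U6, 26 without U7, 27 without U8, 19 without D7 animal U1, 53 without U3 and 86 without U2. The split into higher and lower was 6 and 3, 11 and 15, 14 and 13, 14 and 5, 41 and 12, and 45 and 41 in that order. In each of these fits the 102 peaks kept their direction. As their groups did not overlap, leaving out 1 library left little room for another outcome. DESeq2 called 221 peaks (2.37%), 131 higher (1.4%) and 90 lower (0.963%), and all 102 were among them. With tag totals in place of TMM factors as the scale, the split was 102 higher and 10 lower, and the tested peaks as a whole shifted to a median of 0.32 (log2) from 0.03. The 102 peaks kept their direction on that scale too, and 62 of them were called. When all 42 libraries entered the fit, 161 peaks passed if the lane was ignored, 119 higher and 42 lower. If the lane was a term of the model, 0 passed (edgeR, 569 at an unadjusted p under 0.05), while 101 of the 102 peaks kept their direction. Apart from control libraries, lane 1 held only soleus of D1 animal U24. The step from lane 1 to the other lanes thus rested on that library alone, and this fit is no firm test of the lane. The standard errors, worked out here from the fold changes and the test statistics, had a median of 0.379 without the lane and 0.763 with it (log2).

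The 10 largest rises that met the rule for named peaks are numbered here from rise 1 to rise 10. Their levels are CPM on 1 scale for all 42 libraries, with the controls in the order U6, U7, U8 and the D7 animals in the order U1, U2, U3. Rise 1, on the plus strand at chr8:117172660-117172863 (Rnor_6.0), was at 0.0931, 0 and 0.236 CPM in the controls and 10.6, 19.5 and 3.28 CPM at D7. The controls held 2 of its tags together and the D7 libraries 183, which is a ratio of pooled levels of 60.7 with a 95% exact interval of 16.6 to 505 that covers counting error only. This peak was thus close to absent from control EDL, and its adjusted p was 0.0139 (edgeR). Rise 2, on the plus strand at chr2:187692170-187692456, was at 0.931, 0.808 and 2.59 CPM in the controls and 63.1, 165 and 17.3 CPM at D7. Its log2 fold change was 5.85 (standard error 1.16, adjusted p = 0.0178, edgeR). The D7 animals differed widely among themselves, but the lowest of them was still well above the highest control.

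Rise 3, on the minus strand at chr7:18633961-18634122, was at 0.0931, 0.404 and 0.236 CPM in the controls and 6.73, 2.03 and 12.02 CPM at D7. It rested on 3 control tags against 251, a ratio of pooled levels of 55.5 (95% exact interval 18.8 to 271, counting error only), with an adjusted p of 0.0348 (edgeR). Here U3 was the highest of the D7 animals, unlike in rises 1 and 2. Rise 4, on the plus strand at chr8:81963512-81963882, went from 3.54, 0.808 and 0.707 CPM in the controls to 78.5, 88.6 and 24.2 CPM (log2 fold change 4.96, standard error 0.99, adjusted p = 0.0188, edgeR). Rise 5, on the plus strand at chr5:154109163-154109434, went from 0.652, 0.808 and 2.12 CPM to 40.2, 18.3 and 28.9 CPM (log2 fold change 4.67, standard error 0.83, adjusted p = 0.0114, edgeR). The D7 animals were closer to each other at this peak than at the rises before it.

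Rise 6 and rise 10 are neighbours on the minus strand of chromosome 1, at chr1:104157763-104157927 and chr1:104152972-104153108. Both were at 0.652, 0 and 0.471 CPM in the controls, as they held the same 7, 0 and 2 tags. At D7 rise 6 was at 13.2, 18.7 and 4.21 CPM and rise 10 at 8.30 ± 5.195 CPM (SD, n = 3), and U2 was highest and U3 lowest at both. Their log2 fold changes were 4.55 and 4.01 (standard errors 0.86 and 0.78, adjusted p = 0.0139 and 0.0172, edgeR). Rise 7, on the minus strand at chr1:254735508-254735753, was already measurable in the controls at 18.4, 3.64 and 6.13 CPM and was at 212, 251 and 87.9 CPM at D7 (log2 fold change 4.21, standard error 1.01, adjusted p = 0.0470, edgeR). Rise 8, on the minus strand at chr9:119328971-119329559, was the most abundant of the 10, from 13.5, 31.5 and 20.3 CPM to 402, 456 and 218 CPM (log2 fold change 4.07, standard error 0.68, adjusted p = 0.0102, edgeR). Rise 9, on the plus strand at chr2:78176207-78176433, went from 0.466, 0.808 and 0.707 CPM to 10.6, 3.66 and 15.6 CPM (log2 fold change 4.01, standard error 0.84, adjusted p = 0.0227, edgeR). Over all 56 rises D7 animal U3, the one of lane 6, was the lowest of its group at 34 peaks and U1 the highest at 27. The part of the lane in this was not tested.

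**Figure D2:**
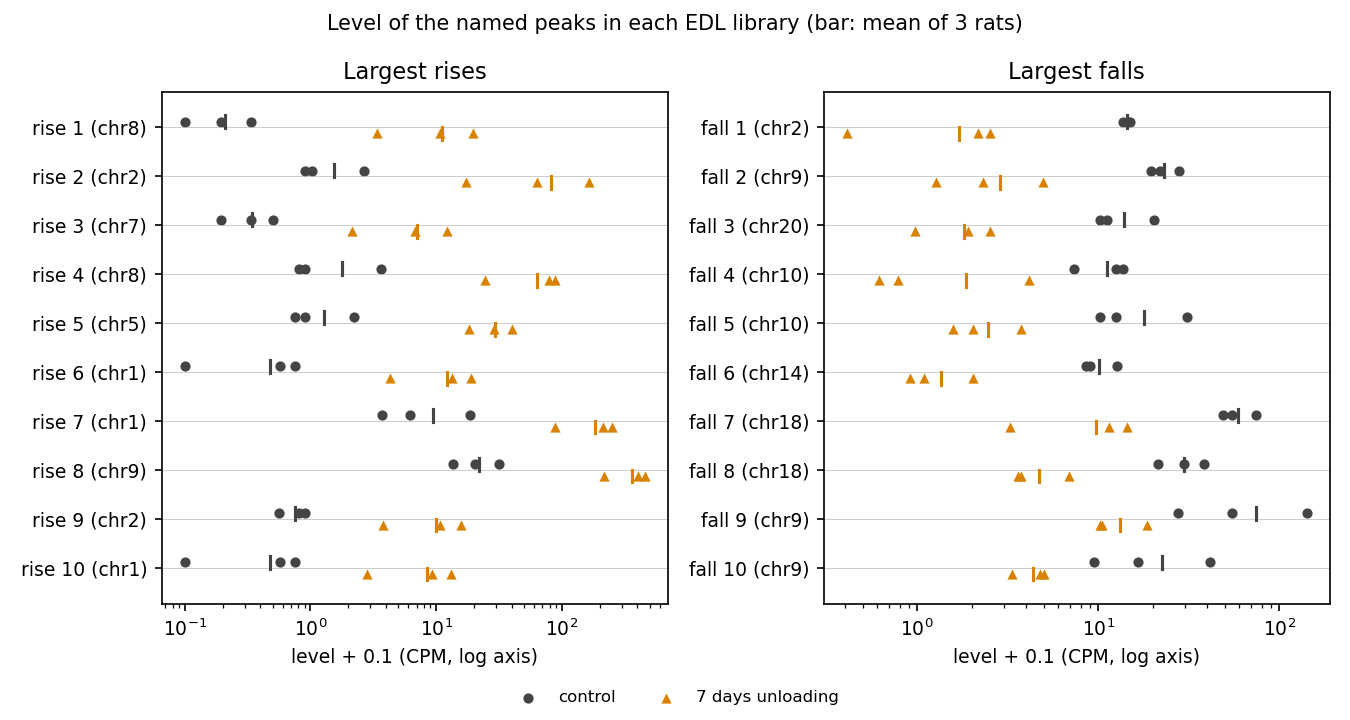
Points give the level of the 20 named peaks in each EDL library (CPM plus 0.1, log axis), circles for the 3 controls and triangles for the 3 D7 animals, and short bars give the means. The groups do not overlap at any of these peaks, which the naming rule required.

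In 13 of the 56 rises (23.2%) the mean of either group was at least 100 CPM, compared with 9.59% of the tested peaks. A pair of them was picked here for its level after the values were seen. The peak at chrX:159157881-159158453, plus strand, had the highest level of all called peaks, at 692, 639 and 847 CPM in the controls and 2385, 1967 and 1758 CPM at D7 (log2 fold change 1.49, standard error 0.26, adjusted p = 0.0102, edgeR). The peak at chr16:6962574-6963118, plus strand, was at 198, 181 and 200.1 CPM in the controls and 1827, 2271 and 606 CPM at D7 (log2 fold change 3.04, standard error 0.72, adjusted p = 0.0470, edgeR). The controls lay close together at the latter, while the D7 animals differed by more than their lowest value.

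The 10 largest falls are numbered from fall 1 to fall 10. Fall 1, on the minus strand at chr2:30750595-30750762, was at 14.4, 14.9 and 13.7 CPM in the controls and 2.07, 2.44 and 0.310 CPM at D7 (log2 fold change −3.40, standard error 0.61, adjusted p = 0.0122, edgeR). Fall 2, on the minus strand at chr9:19532157-19532269, went from 27.8, 19.4 and 21.7 CPM to 2.20, 4.88 and 1.18 CPM (log2 fold change −3.30, standard error 0.57, adjusted p = 0.0102, edgeR). The controls of both peaks lay close together, and every D7 library was far below the lowest control. Fall 3, on the plus strand at chr20:18546709-18546931, went from 20.1, 10.1 and 11.1 CPM to 1.81, 2.44 and 0.867 CPM (log2 fold change −3.23, standard error 0.64, adjusted p = 0.0178, edgeR). Soleus of the same 6 rats held no tag of this peak. Fall 4 is part of the Myh4 stretch and is given with it. Fall 5, on the minus strand at chr10:75457193-75457472, went from 10.1, 30.7 and 12.5 CPM to 1.94, 3.66 and 1.49 CPM (log2 fold change −3.03, standard error 0.70, adjusted p = 0.0402, edgeR). Control U7 stood well above the other controls there.

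Fall 6, on the plus strand at chr14:60764026-60764268, went from 12.6, 8.48 and 8.96 CPM to 1.94, 0.813 and 0.991 CPM. Fall 7, on the minus strand at chr18:26212730-26212806, went from 48.7, 54.5 and 73.8 CPM to 11.4, 14.2 and 3.16 CPM, and the fitted log2 fold change was −2.69 (standard error 0.50, adjusted p = 0.0139, edgeR). Fall 8, on the minus strand at chr18:6782652-6782776, went from 29.8 ± 8.58 to 4.63 ± 1.84 CPM (SD, n = 3). In each of these every D7 animal lay below all controls. Falls 9 and 10 are neighbours on the minus strand of chromosome 9, at chr9:80152259-80154627 and chr9:80150139-80151723, and they are wide peaks, of 2369 and 1585 nt, compared with a median of 210 nt over the tested peaks. Fall 9 was at 27.3, 141 and 54.4 CPM in the controls and 10.4, 10.2 and 18.6 CPM at D7. Fall 10 was at 9.40, 41.2 and 16.5 CPM in the controls and 4.66, 3.25 and 4.89 CPM at D7. At both, control U7 stood well above the other controls. Among the 46 falls 7 (15.2%) had a mean of at least 100 CPM in the controls. The calls of the named peaks depended on single libraries. Of the 20, 2 were called without control U6, 6 without U7, 7 without U8, 5 without D7 animal U1, 16 without U2 and 12 without U3. Each kept its direction, which the naming rule of groups that do not overlap left little room to change. Without U7 the log2 fold changes of falls 9 and 10 were −1.64 and −1.56 and that of fall 5 was −2.42. Without U6 those of rises 3, 4, 6, 7 and 10 were 4.49, 6.39, 5.25, 5.20 and 4.70, and without U8 those of rises 2 and 5 were 6.50 and 5.36. Without D7 animal U2 they were 5.68, 4.78 and −4.21 at rise 1, rise 2 and fall 4. Fall 1 was at −4.02 without U1 and −2.70 without U3, and rise 3 at 4.50 without U3. In the other cases leaving out 1 library moved the fold change of a named peak by less than 1.5 times.

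The called peaks were wider than the tested peaks. The median width was 293 nt for the rises and 233 nt for the falls, compared with 210 nt for all tested peaks, and 13 of 56 rises (23.2%) and 8 of 46 falls (17.4%) were at least 500 nt wide, compared with 11.1% of the tested peaks. They also lay more often near another peak of their strand, with 33 rises (58.9%) and 20 falls (43.5%) within 10 kb of one, compared with 30.7% of the tested peaks. A peak of the opposite strand within 500 nt was found beside 3 rises (5.36%) and 3 falls (6.52%), compared with 10.6%. These are descriptions without a test, and peaks of 1 locus are not independent. When called peaks of a strand within 10 kb of each other were joined, the 56 rises formed 50 loci and the 46 falls 41.

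Several loci held more than 1 called peak. On the minus strand of chromosome 1, between 104152972 and 104166599, 3 peaks were called higher (rise 6, rise 10 and 1 more), and all 5 tested peaks within 10 kb had log2 fold changes from 2.74 to 4.55. On the plus strand of chromosome 3, between 113257618 and 113266757, all 3 tested peaks were called higher, with log2 fold changes from 2.31 to 2.84. At these loci the peaks moved together. At the locus of rise 8 on chromosome 9 the values were uneven, since 2 of 7 tested peaks were called and the log2 fold changes within 10 kb ranged from 0.40 to 4.42. On the plus strand of chromosome 5, between 159967736 and 159971784, 2 of 3 tested peaks were called, and the log2 fold changes of all 3 lay between 2.57 and 2.89. In the deposited counts of single positions, the strongest start of a named peak, pooled over the 3 libraries of a group, was the same nucleotide in both groups at 15 of the 20 peaks. At rise 8 this was position 119329332, which took 52.8% of the tags of the peak in the controls and 62.2% at D7. At the other 5 peaks it moved by 5 to 155 nt. Many of the 20 peaks held few tags in 1 group, those with the same nucleotide included. Among these, rise 3 had 3 control tags and rise 6 had 9, while among those that moved, rise 1 had 2 control tags and fall 2 had 48 D7 tags.

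In the Myh4 stretch 45 TSS peaks were tested, 35 on the plus strand, which is that of the gene, and 10 on the minus strand. The summed level of the plus strand peaks was 2979, 3505 and 3049 CPM in the controls and 1311, 1744 and 1152 CPM at D7, which is 0.441 of the control mean. The 3 D7 animals lay below all controls by more than the spread within either group. On the scale of tag totals the ratio was 0.518. All 35 plus strand peaks had a negative log2 fold change, from −0.70 to −1.93 with a median of −1.20, and at 32 of them the groups did not overlap, with D7 lower, compared with 9.2% of the tested peaks. Called lower by edgeR were 5, compared with 0.492% of the tested peaks, all in the later part of the stretch. The peaks lie along 1 gene in the same libraries and are not independent, so these counts largely repeat the change of the sum. They are a description without a test. Tags that map to several loci were kept by the authors, so counts of related myosin genes can share reads.

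The 5 called peaks lie at chr10:53791126-53791220, chr10:53791552-53791655, chr10:53791767-53791881, chr10:53795772-53795935 and chr10:53796424-53796586, with log2 fold changes of −1.50, −1.85, −1.72, −1.30 and −1.56. The third of them was at 60.4, 63.0 and 56.1 CPM in the controls and 13.6, 19.1 and 21.7 CPM at D7. The first peak of the strand, at chr10:53778241-53778413, was at 31.2, 9.69 and 13.7 CPM in the controls and 7.63, 5.69 and 13.1 CPM at D7, and its groups overlapped (log2 fold change −1.05, standard error 0.52, adjusted p = 0.446, edgeR). The highest peak of the stretch, at chr10:53797328-53797599, was at 375, 548 and 427 CPM in the controls and 192, 302 and 143 CPM at D7, and it was not called either (log2 fold change −1.07, standard error 0.42, adjusted p = 0.263, edgeR). On the minus strand, fall 4 at chr10:53778144-53778270 overlaps the first plus strand peak. It was at 13.6, 7.27 and 12.5 CPM in the controls and 0.517, 4.06 and 0.681 CPM at D7 (log2 fold change −3.18, standard error 0.73, adjusted p = 0.0373, edgeR), and soleus of the same rats held no tag of it.

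**Figure D3:**
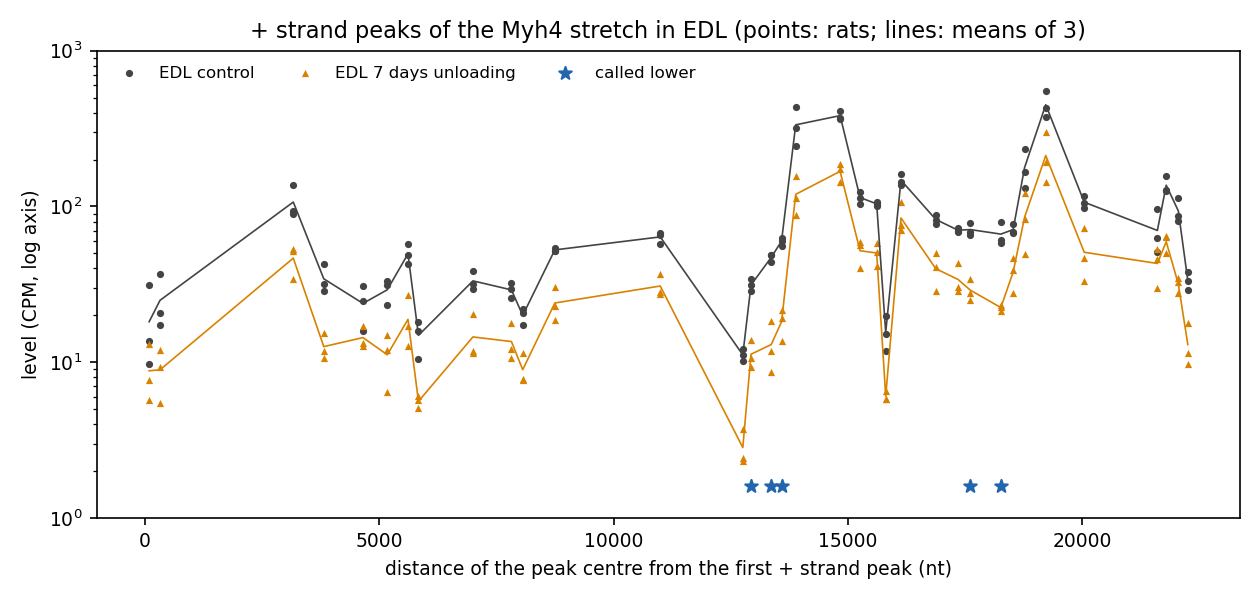
Levels of the 35 plus strand TSS peaks of the Myh4 stretch in each EDL library (CPM, log axis) against the distance of the peak centre from the first of them in nt, with lines through the means of 3 rats and stars under the 5 called peaks. The D7 means lie below the control means along the whole stretch.

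The difference between the muscles was taken from the R7 rats, which are in neither group. This comparison was added after the data were seen. It is EDL minus soleus in the fit over all 42 libraries, without pairing the muscles of a rat. In soleus the median level over the rises was 15.9 CPM in control rats and 35.3 CPM at R7, and over the falls 7.23 and 3.08 CPM. The R7 rats had recovered for 7 days after unloading, so any response of the muscles to recovery is part of the difference. Its share was not tested. Among the 56 rises, 40 were called higher in soleus than in EDL of these rats and 1 was called higher in EDL. Among all tested peaks 7.07% were called higher in soleus and 7.97% higher in EDL. Among the 46 falls, 38 were called higher in EDL and 0 higher in soleus (edgeR, 0 at an unadjusted p under 0.05 in that direction). With the rat as a replicate block, 42 rises were called higher in soleus and 38 falls higher in EDL, and DESeq2 gave the same 2 numbers. Without any single R7 library they were 39 to 41 and 36 to 38. The median log2 difference, EDL minus soleus, was −2.55 over the rises and 2.64 over the falls, compared with −0.000129 over all tested peaks. The table keeps a peak only if it reached 10 CPM in some library, so a peak that stayed below this in EDL had to be higher elsewhere, which was so for 9 of the 56 rises. Of the 47 rises that reached it in an EDL library, 35 (74.5%) were called higher in soleus, compared with 5.09% of the tested peaks that did so. Likewise, of the 26 falls that reached it in a soleus library, 18 (69.2%) were called higher in EDL, compared with 4.24%. The EDL libraries of this filter include those at D7, through which a rise could pass. The rises had a median of 3.50 CPM in control EDL and 5.20 CPM at R7, and the falls 29.6 and 23.7 CPM. Over all tested peaks it was 11.1 CPM in both phases. A part of these shares can thus come from how the peaks were chosen, and peaks of matched level were not compared.

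The muscle difference was also taken at each recovery phase and within a lane. Every soleus library lay above every EDL library at 29 rises at R1, 31 at R3 and 43 at R7, which is 51.8%, 55.4% and 76.8% of them, compared with 27.1%, 16.1% and 12.5% of the tested peaks. Every EDL library lay above every soleus library at 36, 36 and 40 of the 46 falls (78.3%, 78.3% and 87.0%), compared with 27.6%, 18.2% and 15.1%. In the 2 R7 rats whose muscles shared a lane, U12 (lane 5) and U19 (lane 6), soleus was higher than EDL at 49 and 50 of the 56 rises, compared with 50.1% and 46.2% of the tested peaks, and EDL was higher at 44 and 45 of the 46 falls, compared with 49.6% and 53.8%. Of the named rises, rises 3 and 9 were not called between the muscles at R7 (log2 difference −1.15 and −0.33, adjusted p = 0.642 and 0.907, edgeR). The rise that was called higher in EDL at R7 lies at chr3:160935655-160936051, plus strand, with 4.87 ± 2.33 CPM in control EDL and 34.5 ± 10.01 CPM at D7 (SD, n = 3), and 0.238 to 2.97 CPM in the soleus libraries of the same 6 rats.

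**Figure D4:**
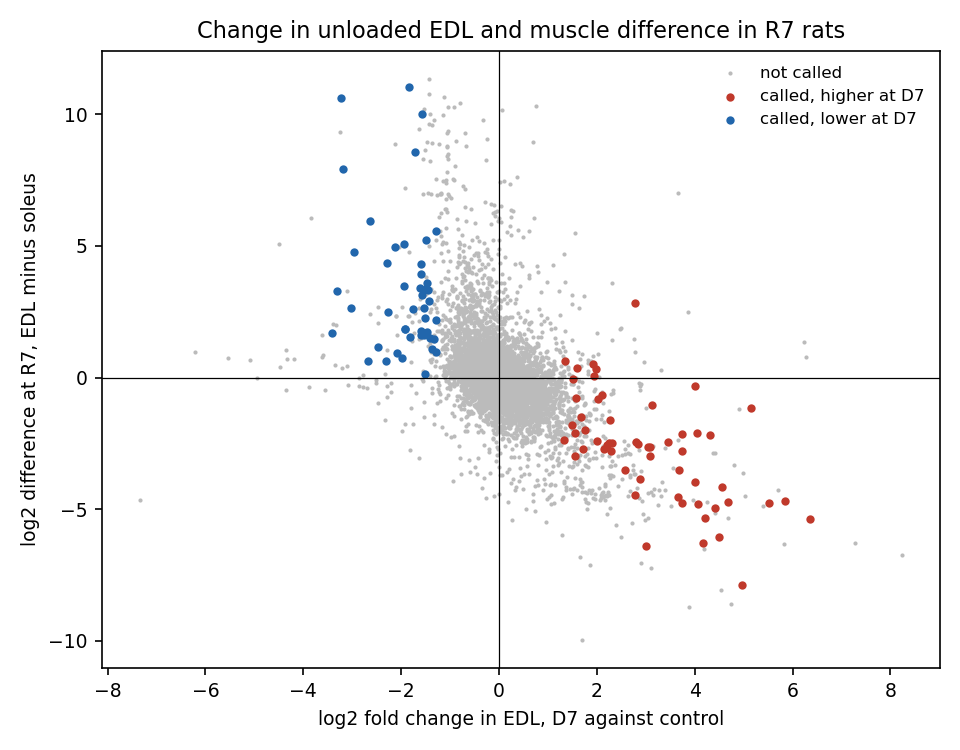
Each point is a tested TSS peak, with its log2 fold change in EDL between D7 and control on the horizontal axis and the log2 difference between EDL and soleus of the R7 rats on the vertical axis. Of the 56 called rises 40 were called higher in soleus and of the 46 called falls 38 were called higher in EDL.

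In soleus of the same 6 rats, the rises had no common direction, while more of the falls were lower than higher at an unadjusted p under 0.05. Of the rises, 55 were tested in soleus, with a median log2 fold change between D7 and control of −0.04, and of the falls 38, with a median of −0.11, compared with −0.02 over all peaks tested in both muscles. At an unadjusted p under 0.05, 7 rises (12.7%) were higher at D7 in soleus and 8 (14.5%) lower, and 2 falls (5.26%) were higher and 8 (21.1%) lower, compared with 5.72% and 5.38% of all peaks tested in both muscles (edgeR). Every D7 library of soleus lay above every control at 9 rises (16.1%) and below at 10 (17.9%), compared with 11.1% and 10.1% of the peaks tested in EDL. For the falls this was so at 4 (8.7%) and 6 peaks (13%). In soleus itself 12 of 9840 tested peaks (0.122%) were called, 7 higher (0.0711%) and 5 lower (0.0508%), and 2 of the EDL rises were among them. No fall was called in soleus by edgeR. The soleus number was 0 to 6 when 1 soleus library was left out and 138 with DESeq2. The split did not hold: 0 higher and 4 lower without control U6, and 0 and 3 without U7. It was 0 and 1 without D7 animal U1, 3 and 3 without U2 and 4 and 1 without U3. Before adjustment the muscles were closer, with 1090 soleus peaks and 1101 of 9343 EDL peaks having p under 0.05 (edgeR). The few calls in soleus thus do not show that it responded less. All soleus controls were in lane 1 and all D7 libraries of soleus in lane 3. Lane and unloading cannot be told apart in soleus either. The peak at chr4:62380589-62380892, plus strand, was higher at D7 in both muscles, from 3.48 ± 1.02 to 14.2 ± 5.49 CPM in EDL and from 3.85 ± 0.185 to 11.4 ± 1.78 CPM in soleus (SD, n = 3). The peak at chr15:4069082-4069615, plus strand, went in opposite directions. In EDL it was at 1.40, 1.21 and 1.18 CPM in the controls and 19.1, 7.31 and 5.02 CPM at D7, and in soleus at 52.3, 42.3 and 94.0 CPM in the controls and 2.66, 3.32 and 1.24 CPM at D7. Its log2 fold change was 3.01 in EDL (standard error 0.63, adjusted p = 0.0227) and −4.62 in soleus (standard error 0.74, adjusted p = 0.0165, edgeR).

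Whether the change differed between the muscles was tested as an interaction over all 42 libraries. It was called in 70 of 9945 peaks (0.704%), 54 with a more positive change in EDL (0.543%) and 16 with a more negative one (0.161%). With the rat as a replicate block, which pairs both muscles of an animal, 110 peaks were called, 67 of the 70 among them. On the scale of tag totals the split was 70 and 5, and the median of the tested peaks shifted to 0.15 (log2) from 0.07. Without control U6 of EDL it was 38 and 5, and without control U8 of EDL 30 and 9. The number with a more negative change was also 8 without D7 animal U2 or U3 of EDL, 8, 10 and 7 without soleus controls U6, U7 and U8, and 10 without D7 animal U2 of soleus. The 70 peaks kept their direction in each of these fits. As the libraries that chose them remained in large part, there was little room for another outcome. Of the rises 26 were called with a more positive change in EDL, and of the falls 8 with a more negative one. The EDL libraries that chose these peaks enter the interaction too, so these numbers describe the peaks and are no separate evidence. At rise 3 soleus was at 0.399, 3.57 and 0.356 CPM in the controls and 23.6, 3.47 and 3.21 CPM at D7, with U1 far above the others, and the interaction was not called (adjusted p = 0.912, edgeR). At rise 5 soleus was at 245, 19.1 and 434 CPM in the controls and 151, 173 and 134 CPM at D7, above EDL in each of the 6 rats, and the interaction was not called either (adjusted p = 0.0760, edgeR). Falls 3 and 4 were among the tested peaks, but with no tag in soleus of these rats their estimates had no usable standard error.

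Along the phases of EDL the called peaks are given as levels, since the comparisons with control share the control libraries, and the D7 libraries that chose the peaks also enter the comparisons of D7 with D1 and D3. The median over the 56 rises of the mean level was 3.50 CPM in the controls. It was 17.7, 19.97 and 22.0 CPM through disuse (D1, D3, D7) and 8.82, 8.74 and 5.20 CPM through recovery (R1, R3, R7). Over the 46 falls it was 29.6 CPM in the controls, 13.97, 13.98 and 9.05 CPM through disuse and 14.3, 16.8 and 23.7 CPM through recovery. The peaks were chosen for the gap between control and D7. That control and D7 lie at the ends of these series can follow from that choice. Single peaks differed from the median. Rise 3 was at 7.01 ± 8.41 CPM at D1, 0.147 ± 0.0430 CPM at D3 and 6.92 ± 5.00 CPM at D7 (SD, n = 3). Rise 7 was at 313 ± 312 CPM at D1, 312 ± 284 CPM at D3 and 184 ± 85.2 CPM at D7, a spread between rats as wide as the differences. Fall 7 was at 65.5 ± 24.3 CPM at D1 and 16.1 ± 6.62 CPM at D3, compared with 59.0 ± 13.1 CPM in the controls.

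**Figure D5:**
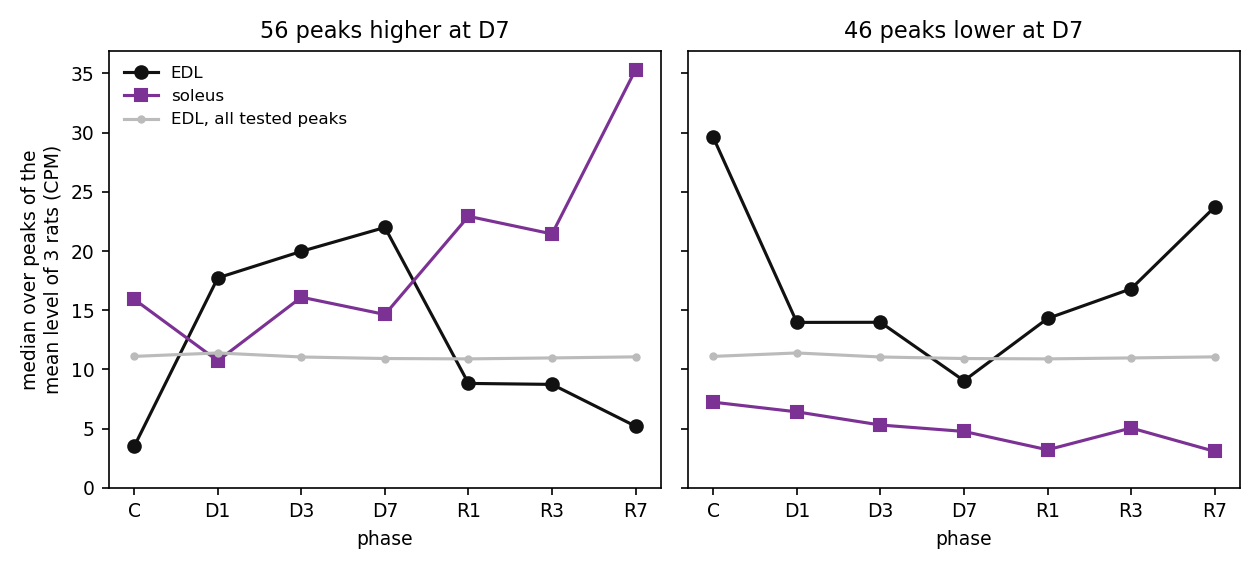
Medians over the called peaks of the mean level of 3 rats (CPM) in control, disuse (D1, D3, D7) and recovery (R1, R3, R7) for EDL and soleus, with the 56 rises on the left and the 46 falls on the right, and all tested peaks of EDL in grey. The rises reach 22.0 CPM at D7 in EDL and 35.3 CPM at R7 in soleus. The peaks were chosen for the gap between control and D7 of EDL.

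Between D7 and D1 of EDL, 40 of 9343 peaks were called (0.428%), 10 higher at D7 (0.107%) and 30 lower (0.321%). This excess of lower peaks depended on the scale. On tag totals 5 were higher and 1 lower, and the median of the tested peaks shifted to 0.42 (log2) from 0.003. Many of the lower peaks lie close together, as in the Myh4 stretch and at chr10:82745711-82762741, and are not independent. D1 animals U24, U25 and U26 held 1696341, 2518438 and 13384117 tags in the peaks. U24 was sequenced in lane 6 and the others in lane 2, so the lane mostly differs between D1 and D7. Of the peaks called against control, 1 rise was higher at D7 than at D1 and 2 falls were lower, the others not passing the test. That rise, at chrX:106667411-106667584, plus strand, averaged 5.49 ± 4.43 CPM at D1 and 31.5 ± 3.60 CPM at D7 (SD, n = 3), compared with 7.02 ± 1.19 CPM in the controls and 31.5 ± 4.14 CPM at D3. The log2 difference between D7 and D1 was 2.29 (standard error 0.48, adjusted p = 0.0449, edgeR). The falls were fall 7 and the peak of the Myh4 stretch at chr10:53791767-53791881, which was at 60.9 ± 26.9 CPM at D1. It was 1 of 5 plus strand peaks of the Myh4 stretch that were called lower at D7 than at D1. The number of called peaks between D7 and D1 was 0 without D1 animal U24 (edgeR, 871 at an unadjusted p under 0.05), 94 without U26, the deepest D1 library, and 2, 3 and 4 without D7 animals U1, U2 and U3. Higher at D7 were both of those without U1, 2 of the 3 without U2 and all 4 without U3, and without D1 animal U25 the split was 4 higher and 31 lower. The 40 peaks kept their direction in each of these fits. The fits share most of the libraries that chose the peaks, which left little room for another outcome. DESeq2 called 151, 34 higher and 117 lower.

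Between D7 and D3, 1 of 9343 peaks was called (0.0107%) by edgeR, 734 had an unadjusted p under 0.05, and DESeq2 called 35. That peak, at chr5:148528613-148529082, plus strand, was at 357, 471 and 501 CPM at D7 and 55.1, 80.9 and 100.1 CPM at D3, with 225 to 419 CPM in the controls and 789 to 957 CPM at D1. It did not pass the test against control (adjusted p = 0.713, edgeR). It was not called when any other library of these groups was left out, and without D3 animal U11, 172 peaks were called between D7 and D3, 150 of them higher at D7.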

How the data were processed

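nAnT-iCAGE libraries of the EDL of 3 D7 and 3 control rats were compared, from a series of 42 libraries in 14 groups. The authors trimmed the reads, mapped them to Rnor_6.0 with tags that map to several loci kept, and aggregated them to start positions with PromoterPipeline. The paper's methods name STAR as the aligner, while the submitters' processing notes list Trimmomatic 0.38, BWA and HISAT2. The authors deposited raw counts of tags per start position of each library and raw counts of all libraries over 9971 tag clusters, with normalized CPM columns that the authors added and that served here only to find the lowest level in the table and the peaks that reached it in each muscle. Every column of counts was mapped to a sample.

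The test on counts was that of edgeR 4.0.16 under R 4.3.3 (filterByExpr, TMM factors, quasi-likelihood test, Benjamini-Hochberg adjustment over all tested peaks), with all 21 EDL libraries in 1 fit (median biological coefficient of variation 0.302) and all 42 in the fit of the interaction and of the muscle difference at R7. DESeq2 1.42.0 was the alternative to the edgeR test. The edgeR scripts were tested on simulated data. Calls required an adjusted p below 0.05 together with a change of more than 2.38-fold. The standard errors printed beside edgeR fold changes are not an output of that test. They were worked out here from each fold change and its test statistic, and add nothing to the fold change and its p-value. The filter left 9343 peaks in EDL. The 626 others were not tested. CPM levels were computed from the counts with TMM factors over all 42 libraries and differ from the scale of the fitted fold changes. Depth ranged from 4137652 to 14549791 tags in the 6 libraries, and intervals and floors cover counting error only. Named peaks were the 10 largest rises and 10 largest falls among called peaks whose libraries did not overlap and whose mean reached 5 CPM or more in the higher group. The peaks and lists were chosen with earlier results of these data known. Gene lists could not be applied, since the table names no gene. The remaining steps ran in Python 3.11.15 (numpy 2.4.6, pandas 2.3.3).

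Numbers of the animals mark both muscles of 1 rat, and the pairing was checked as the correlation of their deviations from the group means over the peaks tested in EDL. It was 0.293, 0.435 and 0.0385 in control rats U6, U7 and U8 and 0.176, −0.371 and −0.218 in D7 rats U1, U2 and U3. These values are of both signs and do not settle the pairing, which rests on the numbers of the animals. The D7 and control rats are different animals, so the rat can be a block only in the interaction and in the muscle difference at R7.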

Additional observations from a re-analysis of the deposited data

Results flagged for a closer look

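The change at D7 differed between EDL and soleus, by the interaction in edgeR's quasi-likelihood test, at 70 peaks. Among the named peaks, with the log2 change of EDL minus that of soleus, it was more positive in EDL at rise 1 on chromosome 8 at 117172660 (7.21), rise 2 on chromosome 2 at 187692170 (6.64), rise 7 on chromosome 1 at 254735508 (6.17), rise 4 on chromosome 8 at 81963512 (4.87) and rise 8 on chromosome 9 at 119328971 (3.83). It was more negative in EDL at fall 2 on chromosome 9 at 19532157 (−3.76). These peaks were named for their change in EDL, so the size of the difference is a description.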

How the results depend on the processing

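For EDL at D7 against control, 102 peaks were called and the number was 161 in the fit over all 42 libraries without the lane, 0 with the lane as a term, 48 after thinning to the shallowest EDL library, 221 with DESeq2 and 9 to 86 when 1 library was left out. Between D7 and D1, 40 peaks were called, 10 higher at D7 and 30 lower, compared with 6 on the scale of tag totals, where the split turned to 5 higher and 1 lower, 0 in a fit of the compared groups only (edgeR, 696 at an unadjusted p under 0.05), 151 with DESeq2 and 0 to 94 when 1 library was left out. Between D7 and D3, 1 peak was called, compared with 4 with tag totals, 0 in a fit of the compared groups only (edgeR, 690 at an unadjusted p under 0.05), 35 with DESeq2 and 0 to 172 when 1 library was left out. In soleus 12 peaks were called, compared with 138 with DESeq2 and 0 to 6 when 1 library was left out. The other alternatives that were run for these counts stayed within 1.5 times. For soleus these were other scaling factors (RLE), no filter and no fold cutoff. Tag totals and a fit of the compared groups only were not run there. No named peak changed direction, but 0 of the 20 were called with the lane as a term, where rise 1 was at 2.26, rise 2 at 3.88 and fall 3 at −6.16 (log2). On tag totals 15 were called and after thinning 12 of 19, with rises 1, 3 and 10 at 5.12, 4.38 and 4.93. The muscle difference at R7, its alternatives and the Myh4 sum on either scale were chosen after seeing the data. The causes of these differences were not tested.

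For the interaction 70 peaks were called, 54 more positive in EDL and 16 more negative, compared with 70 and 5 on tag totals and 110 with the rat as a replicate block, 135 with DESeq2 and 39 to 86 when 1 library was left out. The block changed the R7 numbers from 40 to 42 rises and left 38 falls. No paired analysis was possible for the comparisons within a muscle because the D7, D1, D3 and control rats are different animals that share no number.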

Other observations

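Several rows of neighbouring peaks moved together in EDL without a called peak. They were chosen after their values were seen, as strands with at least 5 tested peaks within 10 kb of each other and a median log2 fold change beyond 1, and they are given as summed levels with no test. On the plus strand of chromosome 1, between 72889011 and 72897660, all 8 peaks had a positive log2 fold change, with sums of 39.0, 277 and 306 CPM in the controls and 1474, 452 and 296 CPM at D7. The groups overlapped, and soleus of the control rats held 7206 to 12880 CPM. On the minus strand of chromosome 15, between 33607830 and 33657899, 26 of 27 peaks had a positive log2 fold change, with sums of 9.78, 79.2 and 64.3 CPM in the controls and 254, 122 and 78.9 CPM at D7. The lowest D7 animal lay just below the highest control there. In both rows control U6 was the lowest control and U1 the highest D7 animal. On the minus strand of chromosome 12, between 39953639 and 39966615, the sums of 5 peaks were 426, 721 and 743 CPM in the controls and 4317, 3879 and 965 CPM at D7. These groups did not overlap, and U3 lay far below U1 and U2.

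Other rows had lower values at D7. On the minus strand of chromosome 7, between 119428695 and 119443719, the sums of 5 peaks were 7365, 6013 and 7598 CPM in the controls and 3108, 4823 and 1480 CPM at D7, while soleus of the same rats held 3.09 to 10.9 CPM. On the minus strand of chromosome 1, between 220120948 and 220136534, the sums of 8 peaks were 4108, 1837 and 2843 CPM in the controls and 1221, 1656 and 1277 CPM at D7, with 0.926 to 10.4 CPM in soleus. In both rows all D7 animals lay below all controls, and the transcripts were close to absent from soleus. On the plus strand of chromosome 10, between 82745711 and 82762741, 20 of 21 peaks had a negative log2 fold change. Their sums were 129, 787 and 133 CPM in the controls and 71.8, 42.3 and 48.3 CPM at D7, while those at D1 were 1896, 336 and 11290 CPM in U24, U25 and U26, and 9 of the 30 peaks called lower at D7 than at D1 lie there.

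The largest fitted change in EDL was not called. The peak at chr12:16973285-16973480, plus strand, had no tag in the controls and was at 2.85, 8.53 and 3.35 CPM at D7, with an adjusted p of 0.0610 (edgeR).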
